A study of Mus musculus with 6 samples.

Results

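The genes described are Runx1, Runx2 and Runx3, which encode the mouse RUNX transcription factors, and Cbfb, which encodes the partner protein that all RUNX factors share. They were taken by gene name from the deposited expression table and are 4 of its 30071 genes. All 4 had enough counts to be tested. RNA came from MC3T3-E1, a mouse pre-osteoblast cell line, grown on polyetheretherketone (PEEK, an implant polymer) with nano- and microscale surface structure. There were 3 libraries from cells on this surface alone, called PEEK alone, and 3 from cells that also received supernatant of RAW264.7, a mouse macrophage line. All 6 libraries share the cell line and the structured polymer, and no flat surface or plain culture plastic enters the comparison. The time in culture, the dose of supernatant and what the RAW264.7 cells had been grown on were not given in the sources used here.

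RUNX proteins bind DNA through the Runt domain. CBF-beta, the product of Cbfb, does not bind DNA itself, but strengthens the binding of its RUNX partner and protects it from degradation. Runx2 is required for osteoblasts to form, Runx1 is best known for its role in blood cells and is also expressed in skeletal progenitors, and Runx3 is known from T cells, sensory neurons and cartilage.

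Runx1 (ENSMUSG00000022952) lies on chromosome 16 from 92398354 to 92623037 on the minus strand. Runx2 (ENSMUSG00000039153) lies on chromosome 17 from 44806874 to 45125684 on the minus strand. Runx3 (ENSMUSG00000070691) is on chromosome 4 from 134847963 to 134905301, and Cbfb (ENSMUSG00000031885) on chromosome 8 from 105897306 to 105944621, each on the plus strand. These coordinates are those of the deposited table, for which no build was given in the sources used here. They are not those of GENCODE M21 (GRCm38), where Runx1 spans 92601466 to 92826149 and Runx2 44495987 to 44814797. The GRCm38.p6 positions of the sequences below therefore cannot be placed on the gene spans given here. Each value covers a whole gene, so exons, introns and alternative starts are not separated.

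RUNX genes are read from alternative starts, and the upstream one is known as the distal promoter. RefSeq windows of 300 bases (250 before and 50 after a start, GRCm38.p6) were matched by symbol for all 4 genes, 6 windows in all. The windows were searched on both strands for the RUNX motif, TGTGGT or TGCGGT. The most upstream windows of Runx1, Runx2 and Runx3 each held the same 16-base element, in which the reverse complement of TGTGGT occurs 2 times with a spacer between. The 30 bases around it are shown because the element is common to all 3 RUNX genes. Capitals mark RUNX motifs.
Runx1, chr16:92826025-92826054, minus strand, from base 21 after the start: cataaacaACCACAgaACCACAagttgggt
Runx2, chr17:44814583-44814612, minus strand, from base 16 after the start: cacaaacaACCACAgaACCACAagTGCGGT
Runx3, chr4:135120503-135120532, plus strand, 142 bases before the start: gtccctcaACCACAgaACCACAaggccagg

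Of 32851 promoter windows, 4 held this element: those of the 3 RUNX genes and that of Gm16225, which overlaps the Runx3 window on the opposite strand. A single RUNX motif is common, present in 22.4% of windows, while 3 or more occur in 0.289%. The Runx2 window held 4, the distal windows of Runx1 and Runx3 held 2 each, and the downstream (proximal) windows of Runx1 and Runx3 and the window of Cbfb held 0. Because Runx1 differed most between the groups, the 250 bases before its distal and before its proximal start are printed. Neither stretch contains the motif, so they have no capitals.
Runx1 distal, chr16:92826075-92826324, minus strand: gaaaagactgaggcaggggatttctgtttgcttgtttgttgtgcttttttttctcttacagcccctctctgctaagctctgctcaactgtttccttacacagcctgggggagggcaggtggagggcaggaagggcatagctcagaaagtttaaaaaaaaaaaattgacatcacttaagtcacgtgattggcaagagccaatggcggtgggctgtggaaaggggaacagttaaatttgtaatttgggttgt
Runx1 proximal, chr16:92697330-92697579, minus strand: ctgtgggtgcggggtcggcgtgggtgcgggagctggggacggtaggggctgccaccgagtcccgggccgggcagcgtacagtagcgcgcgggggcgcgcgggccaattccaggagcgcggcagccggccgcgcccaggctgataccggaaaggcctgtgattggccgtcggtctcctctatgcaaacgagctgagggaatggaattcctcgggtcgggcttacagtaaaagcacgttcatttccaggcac
The counts cannot say which of these starts was in use. A motif match is a description of the letters and not evidence that a factor was bound.

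The libraries held between 74927500 and 82803173 counts. Replicate 1 stood apart from replicates 2 and 3 within both groups. With supernatant its chi-square per gene against them was 102.3 and 111.8, against 35.16 between replicates 2 and 3. On PEEK alone the values were 60.51 and 56.73, against 25.64. Between the groups the chi-square ran from 57.84 to 101.8. The members' fold changes, and those of some list genes, are also given without replicate 1 with supernatant. The labelled cell type was checked against markers. Runx2, Col1a2 (558 ± 57.9 FPKM on PEEK alone, mean ± SD, n = 3), Spp1 (207 ± 13.8 FPKM) and Postn (62.1 ± 14.1 FPKM) were abundant, but Col1a1 was at 3.18 ± 0.294 FPKM, the osteoblast cadherin gene Cdh11 at 0.0139 ± 0.0047 FPKM, and the osteocalcin gene Bglap at 0, 2 and 2 counts. FPKM is the number of fragments scaled to gene length and library size, and so allows levels of different genes to be set side by side.

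By FPKM, Cbfb was the most abundant of the 4 genes, followed by Runx2, Runx1 and Runx3, in each of the 6 libraries. On PEEK alone the means were 55.1 ± 3.38 FPKM for Cbfb, 16.3 ± 1.84 FPKM for Runx2, 4.59 ± 0.355 FPKM for Runx1 and 2.93 ± 0.493 FPKM for Runx3 (SD, n = 3). The ranges of neighbouring genes in this order did not overlap in either group. Among the tested genes of a library, Cbfb lay above 95.9% to 96.8%, Runx2 above 80.3% to 90.1%, Runx1 above 53.7% to 65.4%, and Runx3 above 44.8% to 53.4%.

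Runx1 was the member with the largest difference between the groups. It was at 4.60, 4.95 and 4.24 FPKM in replicates 1, 2 and 3 on PEEK alone, from 4387, 5078 and 4172 counts. With supernatant it was at 7.21, 7.52 and 7.61 FPKM, from 6891, 6960 and 7599 counts. All 3 libraries with supernatant lay above all 3 without, and the spread within each group was small beside the gap between them. Such separation was found for 2 of the 4 members, Runx1 and Cbfb, and for 7.83% of all tested genes, while the opposite order held for 0 members and 7.36% of genes. In bulk RNA a higher level in each cell and a larger share of cells with Runx1 cannot be told apart.

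The log2 fold change of Runx1, supernatant minus PEEK alone, was 0.68 (SE 0.08, 95% interval 0.49 to 0.88), a 1.61-fold higher level. Its adjusted p was 0.0562 by edgeR's quasi-likelihood test with Benjamini-Hochberg adjustment over 18177 genes, just above the threshold of 0.05. That test called 0 of the 4 members, against 0.0165% of all tested genes. Runx1 held rank 8 of 18177 genes by p, with an unadjusted p of 3.17e-05. An unadjusted p under 0.05 was reached by 1 of 4 members, Runx1, and by 8.95% of all tested genes, or 4.65% counting those higher with supernatant. DESeq2 on the same counts called Runx1 (adjusted p = 1.23e-08) and none of the other 3, and called 2.05% of the genes to which it gave an adjusted p. Without replicate 1 with supernatant, edgeR called Runx1 too (log2 fold change 0.73, adjusted p = 0.0234). That fit called 199 of 18819 tested genes, against 3 in the main test, and the library was singled out after its values had been seen. Leaving out any other library gave a log2 fold change of 0.63 to 0.74 and an edgeR adjusted p of 0.124 to 0.406.

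**Figure D1:**
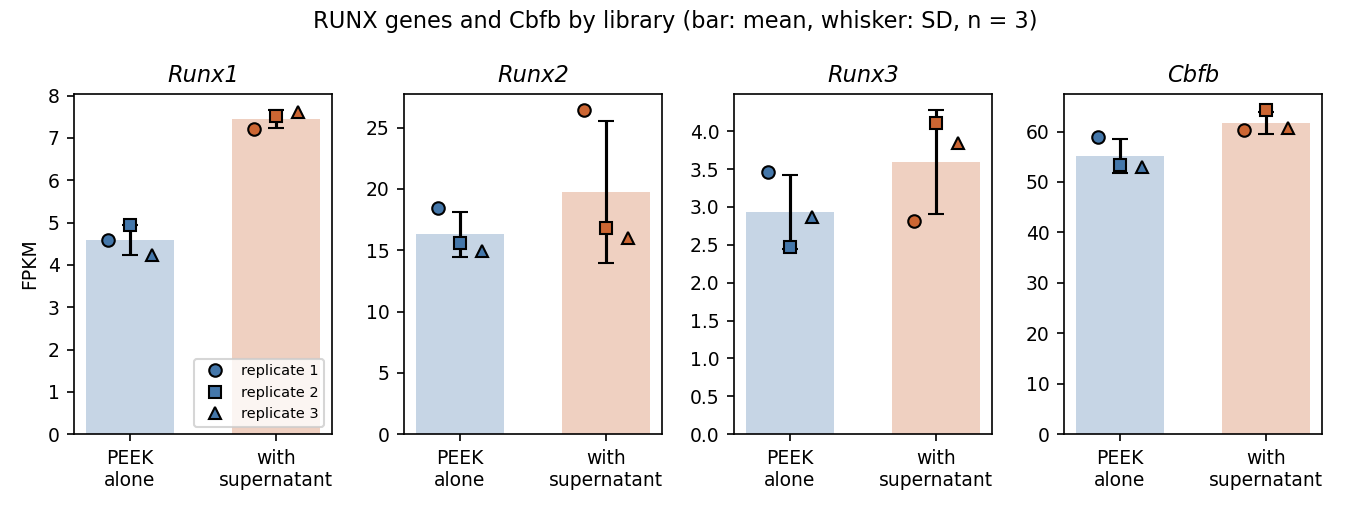
FPKM of Runx1, Runx2, Runx3 and Cbfb in each library, with bars for the group mean, whiskers for the SD (n = 3) and marker shapes for replicate numbers. Runx1 and Cbfb do not overlap between the groups, while Runx2 is set apart only by replicate 1 with supernatant, at 26.4 FPKM.

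Runx2, the factor that defines the osteoblast lineage, did not separate the groups. On PEEK alone it was at 18.4, 15.6 and 15.0 FPKM (12898, 11741 and 10828 counts). With supernatant it was at 26.4, 16.8 and 16.0 FPKM (18558, 11434 and 11758 counts). Replicate 1 with supernatant exceeded all other libraries, and the other 2 of its group lay inside the range of PEEK alone. The log2 fold change was 0.26 (SE 0.18, 95% interval −0.14 to 0.66, edgeR adjusted p = 0.720). Without replicate 1 with supernatant it was 0.02 (95% interval −0.20 to 0.24).

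Runx3 was the least abundant member and had the opposite order within the supernatant group. It was at 3.46, 2.48 and 2.86 FPKM on PEEK alone and at 2.82, 4.11 and 3.85 FPKM with supernatant, from 1060 to 1601 counts per library. Replicates 2 and 3 with supernatant were above every library without it, while replicate 1, the library richest in Runx2, lay inside the range of PEEK alone. The log2 fold change was 0.28 (SE 0.18, 95% interval −0.13 to 0.70, edgeR adjusted p = 0.696). Without replicate 1 with supernatant it was 0.45 (SE 0.15, adjusted p = 0.175).

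Cbfb differed little in size but without overlap. It was at 59.0, 53.3 and 52.9 FPKM on PEEK alone and at 60.2, 64.2 and 60.7 FPKM with supernatant. The lowest library with supernatant exceeded the highest without by a small margin. Its log2 fold change was 0.15 (SE 0.08, 95% interval −0.03 to 0.33, edgeR adjusted p = 0.620), so an increase of more than 1.26-fold lies outside the interval.

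**Figure D2:**
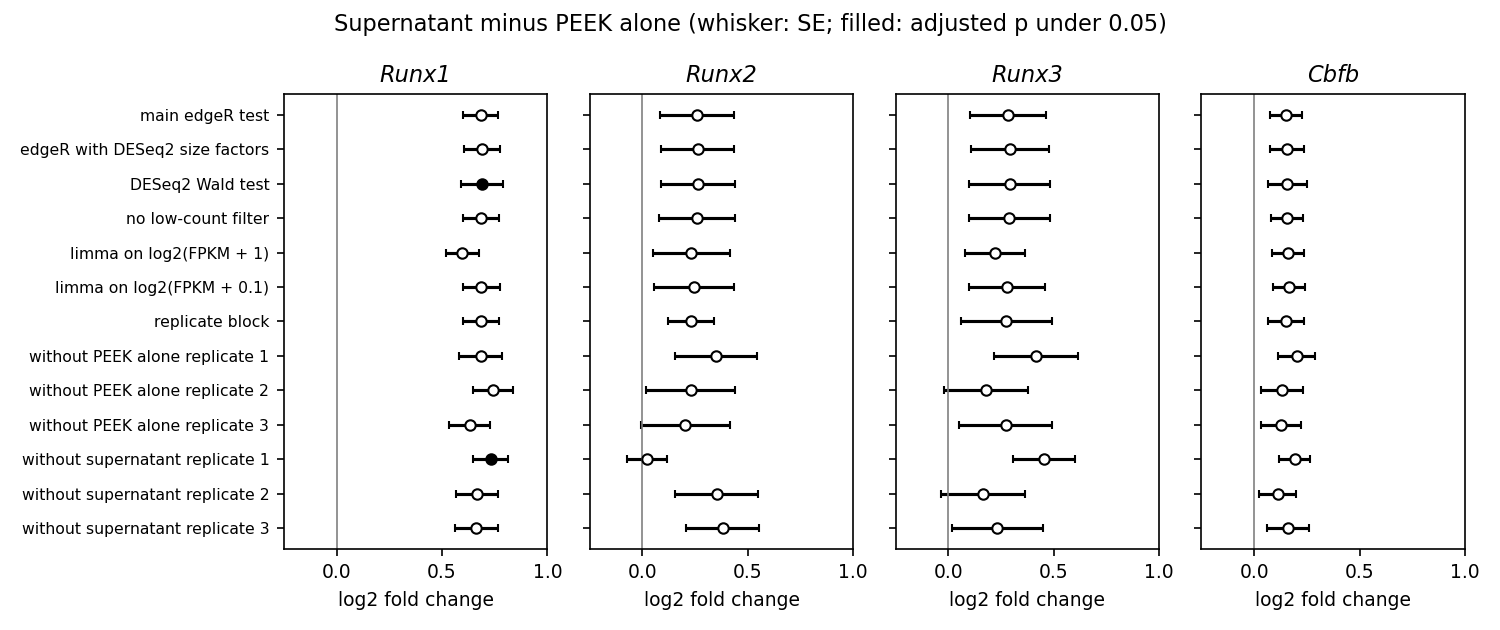
Log2 fold change with its SE (whiskers) for each member under the main edgeR test and 12 alternatives, filled where the adjusted p was under 0.05. Runx1 stays between 0.60 and 0.74 and is filled under DESeq2 and without replicate 1 with supernatant, while Runx2 falls to 0.02 without that library.

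Runx1 and Runx2 were then set against each other within each library, where depth cancels. On PEEK alone the ratio of Runx1 to Runx2 FPKM was 0.250, 0.318 and 0.283 in replicates 1, 2 and 3. With supernatant it was 0.273, 0.447 and 0.475. Replicates 2 and 3 with supernatant lay above all 3 libraries of PEEK alone, while replicate 1, where both genes were high, lay among them. Runx2 thus exceeded Runx1 by 3.15-fold to 4.002-fold on PEEK alone and by 2.11-fold to 3.67-fold with supernatant.

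The mean log2 ratio was −1.82 ± 0.174 on PEEK alone and −1.37 ± 0.439 with supernatant (SD, n = 3), a difference of 0.46. A two-sided exact permutation test over libraries gave p = 0.30, where 0.10 is the smallest value that 3 against 3 allows. Without replicate 1 with supernatant the difference was 0.71, and the exact permutation test gave p = 0.10, again the smallest that design allows. The ratio of counts gave the same difference, 0.46. FPKM divides by the length of a gene model, which counts and FPKM together imply to be 12.4 kb for Runx1 and 9.11 kb for Runx2. The merged exons of GENCODE M21 sum to a similar 12.0 kb and 8.84 kb. If most transcripts were shorter than these models, the levels would be understated. The change of a ratio between groups would be unaffected only if transcript lengths were alike in both groups, which was not tested.

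The summed FPKM of the 3 RUNX genes was 26.5, 23.0 and 22.1 without supernatant, against 36.4, 28.4 and 27.5 with it, and the groups did not overlap. Runx1 made up 17.4%, 21.5% and 19.2% of that sum on PEEK alone and 19.8%, 26.4% and 27.7% with supernatant. Runx2 remained the largest component in every library, from 58.3% to 72.5%. Its share was below that of every PEEK alone library in replicates 2 and 3 with supernatant and above it in replicate 1. Cbfb FPKM was 2.23, 2.32 and 2.40 times the RUNX sum on PEEK alone, and 1.65, 2.26 and 2.21 times with supernatant. By FPKM the cofactor therefore exceeded the sum of its partners in all 6 libraries, with the lowest value again in replicate 1 with supernatant. This order rests on the gene lengths used for FPKM. In counts, Runx2 alone exceeded Cbfb in that library (18558 against 16663). Whether the proteins stood in the same proportion was not measured.

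**Figure D3:**
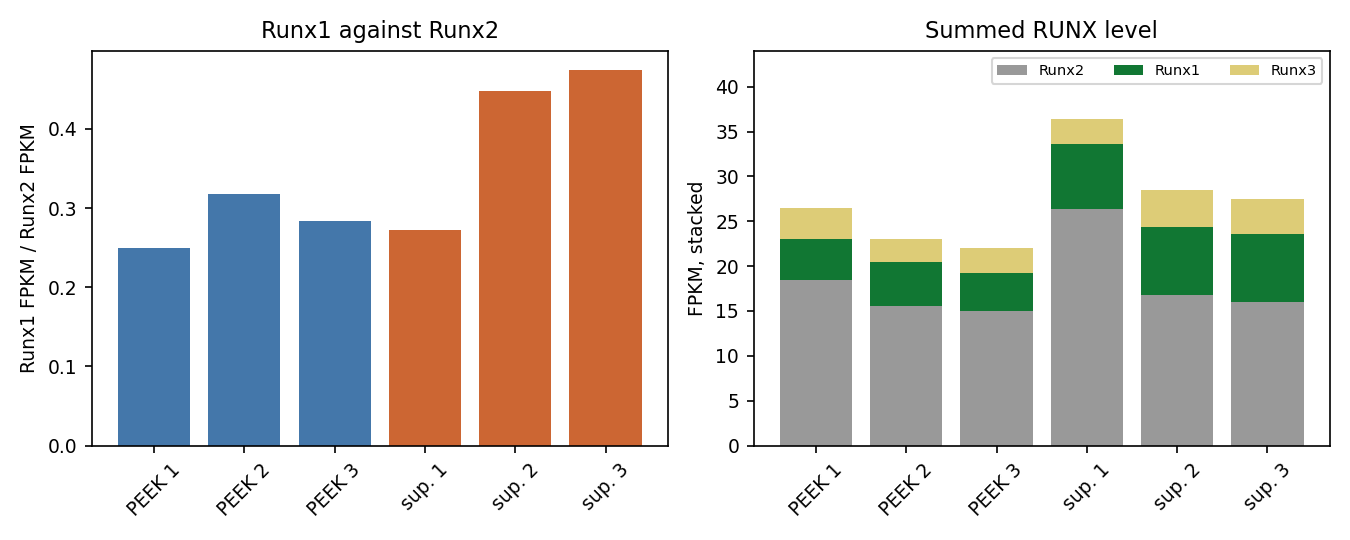
Left, Runx1 FPKM divided by Runx2 FPKM in each library (PEEK, PEEK alone; sup., with supernatant). Right, FPKM of the 3 RUNX genes stacked, where the ratio is 0.447 and 0.475 in replicates 2 and 3 with supernatant but 0.273 in replicate 1, the library with the most Runx2.

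Genes that overlap the members carried few counts. Runx2os1 and Runx2os2, transcripts from the strand opposite to Runx2 and inside its span, had 46 to 79 and 71 to 232 counts per library. Runx2os1 amounted to 0.357 to 0.481 counts per 100 counts of Runx2, and Runx2os2 to 0.550 to 1.97. Supt3, a coactivator complex gene whose span overlaps that of Runx2 on the other strand, had 636 to 826 counts. Gm26626, opposite to Runx1, had 6 to 19 counts. Neither antisense gene of Runx2 was called (log2 fold changes 0.36, SE 0.32, and 0.70, SE 0.34, edgeR adjusted p = 0.796 and 0.604). How the authors' counting used strand was not given in the sources used here, and reads of Runx2 and of its antisense genes may not be fully separated.

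Cbfa2t2, Cbfa2t3 and Runx1t1 encode the ETO family of corepressors, known as fusion partners of human RUNX1 in leukaemia. Cbfa2t2 was the main one, at 7.25 ± 0.315 FPKM on PEEK alone and 7.46 ± 0.527 FPKM with supernatant (log2 fold change 0.03, SE 0.08). Its count may share reads with the processed pseudogene Cbfa2t2-ps1, at 2.32 ± 0.400 and 2.86 ± 0.785 FPKM. Runx1t1 (27 to 63 counts) and Cbfa2t3 (6 to 50 counts) were scarce. Cbfa2t3 had fewer counts in each library with supernatant (24, 16 and 6) than in each without (32, 29 and 50), with an edgeR adjusted p of 0.585.

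Proteins that RUNX factors recruit or bind were represented by 32 tested genes. Of these 0 were called by edgeR and 0 by DESeq2 (2.05% of all genes with an adjusted p). An unadjusted p under 0.05 was reached by 5, all higher with supernatant, beside 4.65% of all tested genes in that direction. Their median log2 fold change was 0.08, beside −0.01 over all tested genes. Smad3, a TGF-beta signal transducer that joins RUNX factors on DNA, was at 18.4, 18.2 and 17.8 FPKM without and 26.2, 21.4 and 21.2 FPKM with supernatant. Its log2 fold change was 0.32 (SE 0.09, edgeR adjusted p = 0.332). All 3 libraries with supernatant were higher than all 3 without. Such separation held for 5 of the 32 partners, beside 7.83% of all tested genes. The others were the histone methyltransferase gene Suv39h1 (0.24), the BMP transducer gene Smad1 (0.19), the transcription factor gene Ets1 (0.28) and the Groucho corepressor gene Tle3 (0.26), each with an SE of 0.07 to 0.10 and an edgeR adjusted p of 0.405 to 0.490. With replicate 1 of the supernatant group left out, Smad3 had 0.25 and Ets1 0.39 (adjusted p = 0.112 and 0.0587). Tle1, another Groucho gene, had a log2 fold change of 0.11 (SE 0.12), and Yap1, a coactivator of growth signalling, 0.05 (SE 0.08).

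Of 33 genes whose products act on Runx2 or its protein, edgeR called 0 and DESeq2 1, Foxo1, beside 2.05% of all genes by DESeq2. At an unadjusted p under 0.05, 5 were higher and 2 lower, beside 8.95% of all tested genes in either direction and 4.65% higher. Their median log2 fold change was 0.07, and that of all tested genes −0.01. Foxo1, a forkhead factor that binds Runx2, was at 3.30, 3.89 and 2.97 FPKM without and 4.84, 5.01 and 4.58 FPKM with supernatant. The groups did not overlap (log2 fold change 0.49, SE 0.11, edgeR adjusted p = 0.273, DESeq2 adjusted p = 0.0130). Of the 33 regulators, 3 were higher in all 3 supernatant libraries and 2 were lower, beside 7.83% and 7.36% of all tested genes. Zfp521, a zinc finger repressor of Runx2, was at 3.66 ± 0.120 and 2.91 ± 0.433 FPKM (−0.35, SE 0.12). Hey1, a Notch target that limits Runx2 activity, was scarce, with 22 to 41 counts per library on PEEK alone and 57 to 84 with supernatant (1.06, SE 0.39). Twist1, a repressor that binds the Runt domain, was at 15.9 ± 1.30 and 16.5 ± 0.429 FPKM (0.05, SE 0.09).

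The library highest in Runx2, replicate 1 with supernatant, was also highest for many reported targets of Runx2. Of 20 tested genes reported as Runx2 targets, 13 were highest in that library, 65.0% against 22.9% of all tested genes. Sp7, which encodes osterix, the next factor of the osteoblast programme, was at 4.39, 3.77 and 3.596 FPKM on PEEK alone and 8.86, 3.32 and 2.69 FPKM with supernatant. Alpl, the phosphatase gene of mineralizing cells, was at 3.93, 7.08 and 6.46 FPKM and at 20.6, 5.95 and 4.91 FPKM. Both genes peaked in that library, and in replicates 2 and 3 with supernatant Sp7 was below every library of PEEK alone.

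Dlx5, a homeobox gene upstream of Runx2, followed the same order, at 4.95, 4.17 and 3.72 FPKM without and 8.98, 3.65 and 3.26 FPKM with supernatant. Col1a1 was at 3.44, 3.25 and 2.86 FPKM and at 3.54, 1.76 and 2.203 FPKM. Spp1, the osteopontin gene, had the reverse order, with 220, 209 and 193 FPKM on PEEK alone and 114, 215 and 240 FPKM with supernatant, so that replicate 1 was the lowest library. Twist2, which like Twist1 encodes a repressor of Runx2, was at 5.08, 3.70 and 2.81 FPKM on PEEK alone and 3.51, 13.2 and 10.8 FPKM with supernatant. It was thus high in the 2 supernatant libraries in which Runx2, Sp7 and Dlx5 were not. Leaving out that replicate 1, the log2 fold change of Twist2 went from 1.25 (SE 0.44, edgeR adjusted p = 0.472) to 1.65 (SE 0.22, adjusted p = 0.0343), and that of Dlx5 from 0.28 to −0.30 (SE 0.16, adjusted p = 0.400). Among the regulators of Runx2, edgeR without that library also called Smurf1 and Ccnd1. Over all tested genes that fit called 199 of 18819, against 3 of 18177 in the main test. Smurf1 went from 0.29 (adjusted p = 0.499) to 0.42 (SE 0.06, adjusted p = 0.0384). Ccnd1 went from 0.75 (adjusted p = 0.653) to 1.17 (SE 0.15, adjusted p = 0.0327). That library was singled out after its values had been seen, and the 20 genes are not independent, so these orders are descriptions.

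**Figure D4:**
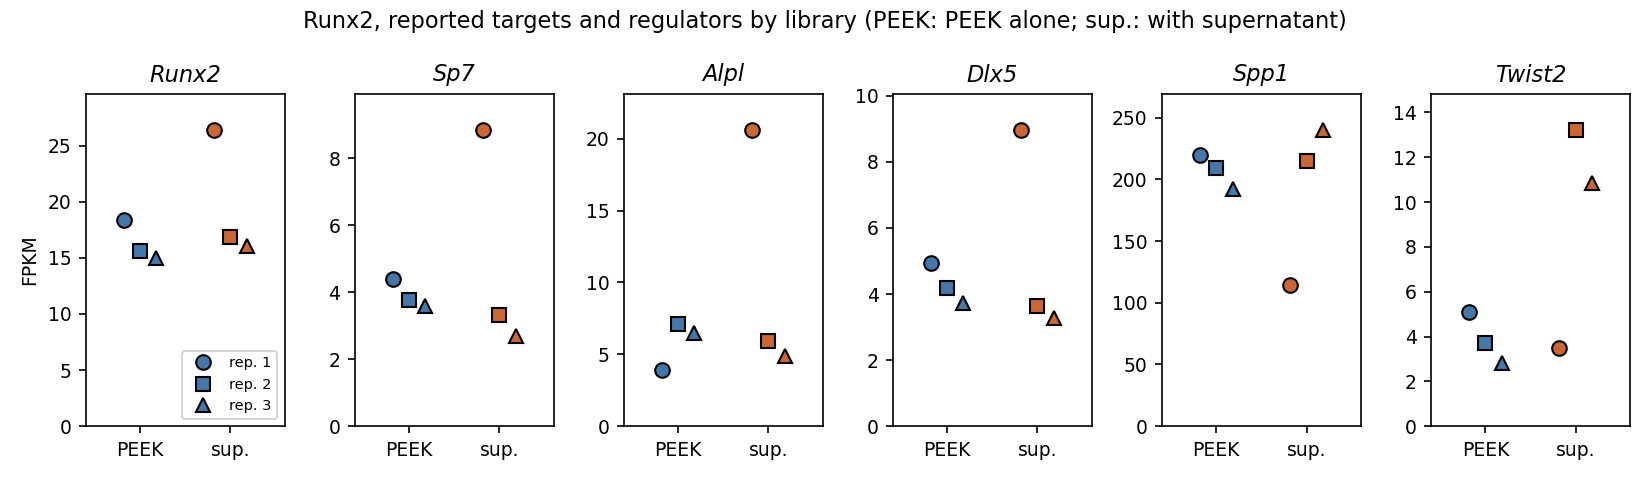
FPKM of Runx2, of its reported targets Sp7, Alpl and Spp1 and of the regulators Dlx5 and Twist2, with 1 marker per library and shapes for replicate numbers. Replicate 1 with supernatant (circle) is the highest library for Runx2, Sp7, Alpl and Dlx5 and the lowest for Spp1.

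Over all 6 libraries the reported Runx2 targets were, as a group, centred near no difference. Of the 20 tested, edgeR called 0 and DESeq2 called 1, beside 2.05% of all genes by DESeq2. At an unadjusted p under 0.05, 2 were higher and 1 lower, 3 in all, beside 8.95% of all tested genes. Their median log2 fold change was −0.02, beside −0.01 over all tested genes. Ptch1, the Hedgehog receptor gene and the 1 that DESeq2 called (adjusted p = 0.00860), was at 13.4, 13.3 and 9.51 FPKM without and 26.7, 16.6 and 17.5 FPKM with supernatant. Its groups did not overlap (log2 fold change 0.73, SE 0.19, edgeR adjusted p = 0.310), and again replicate 1 with supernatant was the highest. Without it the log2 fold change was 0.51 (SE 0.14, adjusted p = 0.123). Phex, a phosphate-regulating endopeptidase gene, was lower in all 3 libraries with supernatant (−0.35, SE 0.11, adjusted p = 0.405). Tcf7, a Wnt effector gene, was higher in all 3 (0.34, SE 0.15, adjusted p = 0.545). Its margin was narrow, with 3.54 FPKM in replicate 3 with supernatant against 3.50 FPKM in replicate 3 on PEEK alone. Of the 20 targets, 2 were higher in all 3 supernatant libraries and 1 was lower, beside 7.83% and 7.36% of all tested genes. For Sp7, Alpl, Spp1 and Col1a1 the groups overlapped (log2 fold changes 0.31, 0.82, −0.13 and −0.37, SE 0.39, 0.50, 0.24 and 0.22). Once replicate 1 with supernatant was left out, these became −0.37, −0.09, 0.15 and −0.67 (SE 0.15, 0.24, 0.08 and 0.14, edgeR adjusted p = 0.265, 0.889, 0.403 and 0.0686). Sp7, Alpl and Spp1 thus changed sign. In that fit most of the 20 tested targets had a negative log2 fold change, such as Col1a2 (−0.57, SE 0.10, edgeR adjusted p = 0.0507). Those of Ptch1, Tcf7, Spp1, Vegfa, Gli1 and Col10a1 were positive. The promoter windows of the reported targets held a RUNX motif about as often as any other: 7 of 28 windows, 25%, against 22.4% of all windows.

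**Figure D5:**
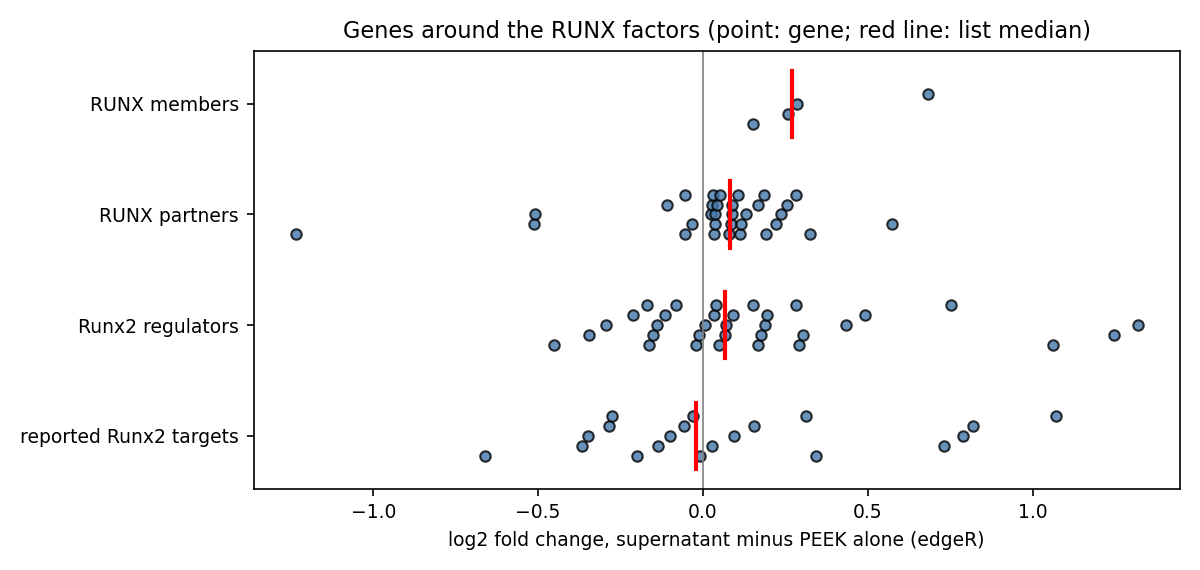
Log2 fold change with supernatant (edgeR) of each tested member, RUNX partner, Runx2 regulator and reported Runx2 target, with a red line at the list median. The medians of the last 3 lists lie between −0.02 and 0.08, and Runx1 is the point farthest to the right among the members, at 0.68.

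Runx1 is strongly expressed in macrophages, so markers of that lineage were read in the same libraries. The leukocyte gene Ptprc had 0 counts in 5 libraries and 4 counts in replicate 3 with supernatant. On PEEK alone the myeloid factor gene Spi1 had 0, 6 and 8 counts, against 0, 8 and 15 with supernatant. Csf1r, the receptor gene for macrophage colony-stimulating factor, had 20, 22 and 46 counts against 23, 27 and 44. Summed over the 11 of 14 macrophage markers with values, the level was 11.2 to 14.9 CPM (counts scaled to library size) on PEEK alone and 10.5 to 13.8 CPM with supernatant. Most of it came from Cd14 (4.56 ± 0.397 and 4.08 ± 0.816 FPKM) and Cd68 (1.95 ± 0.537 and 1.45 ± 0.570 FPKM). Adgre1, Itgam and Tyrobp were looked for and had no values under those names. The part of macrophage RNA in the Runx1 level was not tested. Of 6 tested markers edgeR and DESeq2 called 0, and 1 had an unadjusted p under 0.05, beside 8.95% of all tested genes. Lcp1, an actin-bundling gene of leukocytes, was that gene (log2 fold change 0.72, SE 0.27, adjusted p = 0.498) and Laptm5, a leukocyte lysosomal gene, was at 0.0399 ± 0.0189 and 0.0560 ± 0.0453 FPKM.

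Genes reported as Runx1 targets in blood cells were nearly silent. Of 16 listed, 10 had values and 3 were tested. EdgeR and DESeq2 called 0 of these, beside 0.0165% and 2.05% of all genes. An unadjusted p under 0.05 was reached by 1, beside 8.95% of all tested genes. All 3 supernatant libraries were above all 3 without for 1 of the 3, beside 7.83% of all tested genes. Cebpa, a myeloid and adipocyte factor gene, held 36, 33 and 44 counts without supernatant against 64, 50 and 108 with it, and the groups did not overlap (log2 fold change 0.98, SE 0.37, edgeR adjusted p = 0.498). Gfi1, a repressor gene of blood progenitors, had 0 to 18 counts, and Csf1r had a log2 fold change of 0.11 (SE 0.50). Of markers of other cells with RUNX activity, the T cell kinase gene Zap70 had a log2 fold change of −0.05 (SE 1.32) at 0 to 0.338 CPM. The cartilage collagen gene Col2a1 had −0.89 (SE 1.14), and the cartilage factor gene Sox9 was at 26.1 ± 5.01 and 27.8 ± 8.33 FPKM. The T cell markers Cd3e, Cd3d and Cd8a and the cartilage markers Acan and Col9a1 had no values under those names.

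The genes whose pattern over the 6 libraries was most like that of Runx1 were Ubr4, Ercc3, Ttc39b, Sik1 and Rgs12, with Pearson r of 0.990 to 0.996 on log2 CPM among 9236 genes compared. Their log2 fold changes ran from 0.11 (Ercc3) to 0.51 (Ttc39b), below that of Runx1. Those most like Runx2 were Ncdn, Dlg4, Plekhg4, Ephb3 and Zfp101 (r of 0.983 to 0.991), each highest in replicate 1 with supernatant. Plekhg4 was at 27.5, 22.3 and 21.8 FPKM on PEEK alone and 41.3, 22.8 and 21.7 FPKM with supernatant. With 6 libraries in 2 groups many genes reach such values, and no test goes with them. Among the members themselves, Runx1 and Runx2 had r of 0.35, Runx1 and Cbfb 0.80, Runx3 and Cbfb 0.86, and Runx2 and Runx3 −0.20.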

How the data were processed

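Per the labels' protocols, RNA was selected with oligo(dT), second strands were marked with dUTP, molecular identifiers were ligated, and both ends were sequenced. The submitters' processing notes name cutadapt 1.9 and HISAT2 2.2.1. The build, annotation, counting tool, and use of strand and identifiers were not given in the sources used here. Per the file headers, the deposited table held raw counts and FPKM values for each gene and library. Replicate numbers are those of the library names. Titles call some libraries biological replicates, but nothing else speaks of separate cultures, and p-values may thus cover only technical spread.

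Deposited counts were tested with edgeR 4.0.16 in R 4.3.3: filterByExpr (minimum count 10, minimum total 15), TMM, quasi-likelihood fits on group alone, and a Benjamini-Hochberg adjusted p under 0.05 over all 18177 genes kept. The SE is the log2 fold change divided by the square root of F, and CPM uses TMM-scaled library sizes, except for summed markers, which use total counts. The alternatives were DESeq2 1.42.0, DESeq2 size factors, no filter, limma 3.58.1 on log2(FPKM + 1) or log2(FPKM + 0.1) for genes reaching 1 FPKM in 3 libraries, the replicate block, leaving out each library in turn, and an adjusted p under 0.10. The fits were tested on simulated data, where DESeq2 called more unchanged genes than edgeR. The fit without replicate 1 with supernatant was extended to list genes after seeing the data. No libraries held identical values.

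The members and lists were chosen with earlier results of these data known. Besides the members, genes with names starting with Runx or Cbf, 11 fixed genes (1 of them not reported here), the 4 members of smallest p of each list, and the 5 genes most like Runx1 and Runx2 (mean FPKM of at least 2, no unnamed models, pseudogenes or ribosomal protein genes) were named. Dlx6, Hes1 and other list members were counted only. Genes named beyond that rule were chosen after their values were seen. Promoter sequences are those of RefSeq, GRCm38.p6.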

Additional observations from a re-analysis of the deposited data

How the results depend on the processing

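The direction of all 4 members was the same under each of 12 alternatives, and 46 of 48 alternative fold changes stayed on the same side of the threshold. The exceptions were both Runx1, called by DESeq2 (log2 fold change 0.69) and by edgeR without replicate 1 with supernatant. At an adjusted p under 0.10 Runx1 was also called by the main test (0.0562), with DESeq2 size factors (0.0549) and by limma on log2(FPKM + 1) (0.0580) and log2(FPKM + 0.1) (0.0672). Leaving out each library moved Runx1 between 0.63 and 0.74, Runx2 between 0.02 and 0.38, Runx3 between 0.17 and 0.45, and Cbfb between 0.11 and 0.20. The Runx1 to Runx2 difference ranged from 0.31 to 0.71.

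The number of genes called over the whole table was 3 in the main test, 315 with DESeq2, 20 at an adjusted p under 0.10, and 0 to 199 when 1 library was left out. The 199 came without replicate 1 with supernatant. Without the low-count filter edgeR called 0 genes (1903 at an unadjusted p under 0.05, 29255 tested). With the replicate number as a block it also called 0 (1330 unadjusted), and Runx1 had a log2 fold change of 0.68 and an adjusted p of 0.332. Same-numbered libraries deviated from their group means with correlations of −0.03, −0.01 and 0.02, so no shared deviation was seen over all genes. Whether same-numbered libraries were cultured or prepared together cannot be read from these values. The cause of the changes between settings was not tested. Each member held at least 1060 counts in each library.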

Other observations

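Csf2, which encodes the growth factor GM-CSF and is a reported RUNX1 target in T cells, was listed with 0 counts in all 3 libraries on PEEK alone and with 5, 14 and 8 counts in replicates 1, 2 and 3 with supernatant. It fell under the count filter and was not tested, and so few counts, chosen after they were seen, carry no comparison. Bglap had 17 counts in the first supernatant replicate and 0 in the others of that group. Of 32 tested RUNX partners, 14 were highest in replicate 1 with supernatant (43.8%) and 1 was lowest (3.12%), beside 22.9% and 21.1% of all tested genes.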
